A study of Mus musculus with 8 samples.

Results

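KAT8-deficient mouse macrophages were compared with wild-type (WT) macrophages after both had been treated with R848, over all genes of a messenger RNA count table. The comparison used 4 of the 8 libraries of the study: 2 of WT cells and 2 of KAT8-deficient cells, each given R848 at 100 ng/ml for 6 h. The other 4 libraries were untreated cells of the same genotypes, 2 of each, and served as the background without R848. All the cells were bone-marrow-derived macrophages (BMDM), that is, primary cells that mature into macrophages in medium with recombinant M-CSF, the macrophage growth factor, at 20 ng/ml. The column names call the KAT8-deficient cells KAT8-cKO; how and in which cells the gene was inactivated, which part of it was removed, and the age and strain of the mice were not stated in the sources used here. The labels number 2 samples per group and do not call them separate animals or separate cultures, so the p-values measure only the spread between these samples, which may be technical.

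KAT8 (also called MOF) is a lysine acetyltransferase of the MYST family. It works in the MSL and NSL complexes and is best known for acetylating histone H4, a mark of open and transcribed chromatin. R848 (resiquimod) is a small-molecule agonist that mouse macrophages sense through the endosomal receptor TLR7. TLR7 signals through MyD88 to NF-kB and MAP kinases, which turn on cytokine and chemokine genes, and to interferon regulatory factors, which turn on interferons and, through them, the interferon-stimulated genes.

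The 4 R848 libraries held 19033264 to 21217188 counts each, and 14040 genes passed the filter on low counts. Levels are in CPM, the counts scaled to a common library size, and values given in pairs are replicates 1 and 2 of a group. Differences are log2 values, KAT8-deficient minus WT, with the standard error (SE) of the fit. Each adjusted p comes from edgeR's quasi-likelihood test with Benjamini-Hochberg adjustment over all genes tested, and a gene was called, and is said to have risen or fallen in KAT8-deficient cells, when this was under 0.05. Macrophage markers were present in every library: the 14 markers listed summed to 16260 to 17470 CPM in WT R848 and 10010 to 10390 CPM in KAT8-deficient R848 cells, or 5254 to 5516 and 4750 to 5059 CPM without Lyz2. Dendritic cell, neutrophil, lymphocyte and mast cell marker lists summed to at most 23.5 CPM in any library, with 5, 5, 5 and 6 of their markers at 3 counts or fewer in every library. Not all other lists were low. Over the 8 libraries the fibroblast and stromal list summed to 3061 to 5224 CPM. The contractile list summed to 891.1 to 1483 CPM and the mesothelial and epithelial list to 344.3 to 651.8 CPM, as given further on.

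Kat8 itself (chr7:127912516-127925837, plus strand, mm10) was at 18 and 16 CPM in WT R848 libraries and 9.94 and 10.4 CPM in KAT8-deficient R848 libraries. The groups did not overlap, and the difference was -0.74 (SE 0.12, adjusted p = 0.00553). Without R848 it was -0.83, with 17 and 17.9 CPM in WT and 8.76 and 10.8 CPM in KAT8-deficient cells. The counts cover the whole gene, so reads from outside a deleted part would still be counted. Without WT R848 replicate 1 the difference was -0.65 with an adjusted p of 0.0526. Of the other 12 members of the MSL and NSL complexes, edgeR, DESeq2 and limma-voom each called 0, with 1 at an unadjusted p under 0.05 in edgeR.

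Of the genes tested, 1911 (13.6%) were called under R848. KAT8-deficient cells had 1143 genes higher (8.14% of those tested) and 768 lower (5.47%). Of the called genes, 769 (40.2%) differed by less than 0.5, and 405 by at least 1, of which 234 were higher and 171 lower. Among genes that reached 5 CPM in either R848 group and had no predicted name, the 15 largest falls included the inflammatory mediators and sensors Il12b, Cxcl2, Il1b, Cxcl3, Ccl3, Tnf, Nlrp3 and Acod1, while the 15 largest rises were of genes of mixed function, the first of them Gdpd3, Pcdhgb5, Fmo2, Megf6 and Fam84a. In all 1911 called genes the WT and KAT8-deficient R848 libraries did not overlap, which by itself held for 29.2% of tested genes in the higher and 30.3% in the lower direction. The number of calls rested on single libraries: it was 784 without WT R848 replicate 1, 1025 without WT R848 replicate 2 and 976 without KAT8-deficient R848 replicate 1.

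**Figure D1:**
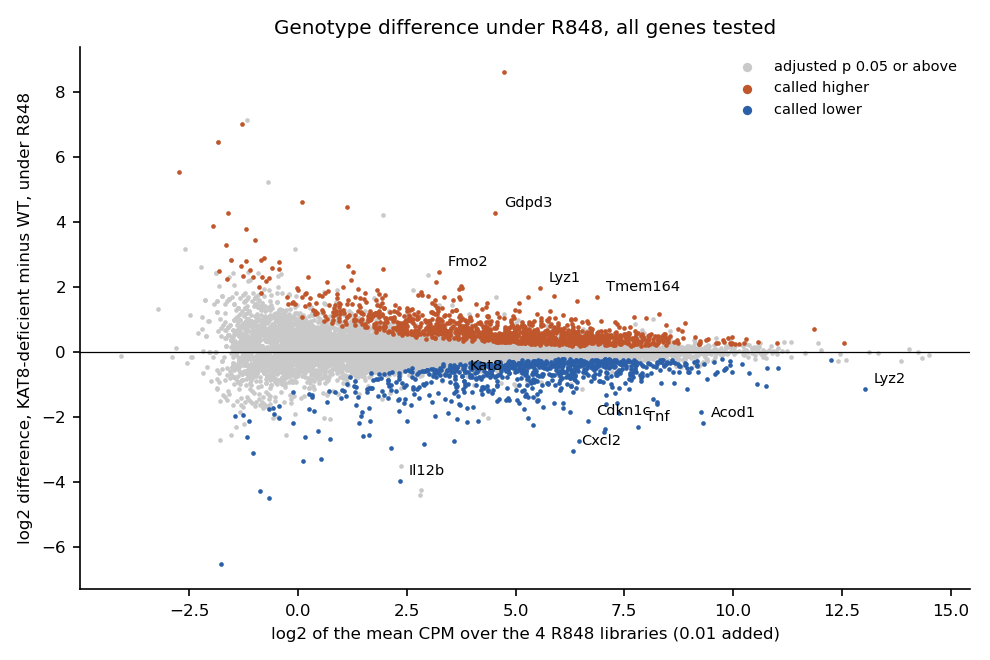
The log2 difference between KAT8-deficient and WT cells under R848 (vertical axis) is plotted against the log2 mean level over the 4 R848 libraries (horizontal axis), 1 point per gene tested. Called genes are coloured; Tnf (-2.29), Acod1 (-2.19) and Cxcl2 (-3.04) lie far below 0 at middle and high levels, and Gdpd3 (4.26) lies far above.

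The KAT8-deficient R848 libraries differed from each other along these genes. Of the 171 genes lower by at least 1, 140 were higher in replicate 2 than in replicate 1 of the KAT8-deficient R848 cells (81.9%, against 51.6% of all genes tested), with a median log2 ratio of 0.31 between the replicates. Of the 234 genes higher by at least 1, 187 (79.9%) were lower in replicate 2 than in replicate 1. KAT8-deficient R848 replicate 2 thus lay nearer to the WT R848 libraries than replicate 1 for most of the strongly different genes, in both directions, and the per-library values below show it gene by gene.

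The cytokine genes, the secreted signals by which macrophages start inflammation, were lower in 12 of 24 members. Of the other members, 1 rose and 11 were not called; the list had a median difference of -0.92 against -0.0074 over all genes tested; in untreated cells 1 rose and 1 fell. Tnf, the gene of the early inflammatory cytokine TNF, was at 381 and 368 CPM in WT R848 cells and 51.8 and 101 CPM in KAT8-deficient R848 cells, against 22.8 and 28.1 CPM and 24.6 and 23.6 CPM untreated. The difference under R848 was -2.29 (SE 0.25, adjusted p = 0.00089), and even the higher KAT8-deficient library was far below both WT libraries, while the untreated groups overlapped. Il1a, an alarmin of the interleukin-1 family, fell from 87.8 and 81.7 CPM to 38.7 and 48.2 CPM, a difference of -0.96. Inhba, which encodes the activin A subunit, fell from 27.1 and 27.7 to 11.9 and 14.9 CPM (-1.03). The genes of the interleukin-12 family that were tested were lower. Il12b, the shared p40 subunit of IL-12 and IL-23, was at 11.4 and 7.86 CPM in WT and 0.33 and 0.896 CPM in KAT8-deficient cells (-3.96, SE 0.71, adjusted p = 0.00778). Il12a, the partner subunit, was at 1.07 and 0.97 CPM against 0.0471 and 0.0472 CPM, and Il27 at 1.87 and 1.94 CPM against 0.471 and 0.141 CPM. Ebi3, the partner of Il27, fell from 24.4 and 26.9 to 11.1 and 13.3 CPM (-1.07). Its raw counts were also lower untreated, at 324 and 326 in WT against 155 and 174 in KAT8-deficient libraries. Il1b, which encodes the inflammasome substrate IL-1 beta, was at 9.44 and 6.23 CPM against 0.565 and 1.46 CPM (-2.94, adjusted p = 0.0118). Il10, the anti-inflammatory cytokine, was the single member that rose, from 1.28 and 0.919 CPM to 3.58 and 3.02 CPM (1.58, SE 0.23, adjusted p = 0.00312); the untreated libraries lay between 3.20 and 4.46 CPM in both genotypes. Il6 was near 1 CPM throughout (1.44 and 1.28 against 0.66 and 1.56 CPM) and was not called, with an adjusted p of 0.692. Ifnb1, the interferon-beta gene, had 1 count in a WT untreated library and 0 in all others and was not tested. Leaving out 1 library lowered the count of cytokine genes that fell to 5 (without WT R848 replicate 1), 7 (without WT R848 replicate 2) or 6 (without KAT8-deficient R848 replicate 1). Il12b and Il1b were then no longer called without WT R848 replicate 1 (adjusted p = 0.0581 and 0.083) or without KAT8-deficient R848 replicate 1 (0.0551 and 0.0754), and the DESeq2 test gave Il12b an adjusted p of 0.121.

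Of 19 chemokine genes tested, whose products attract leukocytes, 12 fell and 4 rose, with a median difference of -0.83 (untreated 2 rose and 2 fell, median 0.10). The neutrophil-attracting Cxcl2 was at 146 and 137 CPM in WT and 9.47 and 25 CPM in KAT8-deficient R848 libraries (-3.04, SE 0.42, adjusted p = 0.00215), and untreated at 3.91 and 9.83 and 3.1 and 2.94 CPM. Its relatives Cxcl1 and Cxcl3, which bind the same receptor, fell from 53.8 and 47.3 to 12.6 and 21.7 CPM and from 20.3 and 21.4 to 2.21 and 4.06 CPM. Chemokines of the CC family fell too. Ccl3 went from 224 and 222 to 30.3 and 50.7 CPM (-2.46, SE 0.20, adjusted p = 0.000394). Ccl4 went from 48.8 and 47 to 16.9 and 17.8 CPM (-1.46, SE 0.09, adjusted p = 0.000141). Ccl5 went from 22.7 and 22.7 to 7.78 and 6.04 CPM (-1.72, adjusted p = 0.000444), and it was already lower untreated (11.2 and 13.7 against 5.04 and 4.76 CPM, -1.34, adjusted p = 0.00469). For Ccl3 and Ccl4 the untreated genotypes stood at 20.4 and 25.1 against 22 and 19.5 CPM and 10.5 and 11.3 against 12 and 11.4 CPM. The monocyte attractants Ccl2 (-0.83) and Ccl7 (-0.83) fell by less. The 4 that rose were Cxcl14 (0.97), Cxcl13 (1.65), Cxcl5 (0.59) and Cxcl12 (0.34); Cxcl12 is also on the stromal marker list, whose summed level was higher in KAT8-deficient cells as given further on. The count of chemokines that fell was 11 without WT R848 replicate 1, while the count that rose was 1 without that library and 2 without WT R848 replicate 2.

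**Figure D2:**
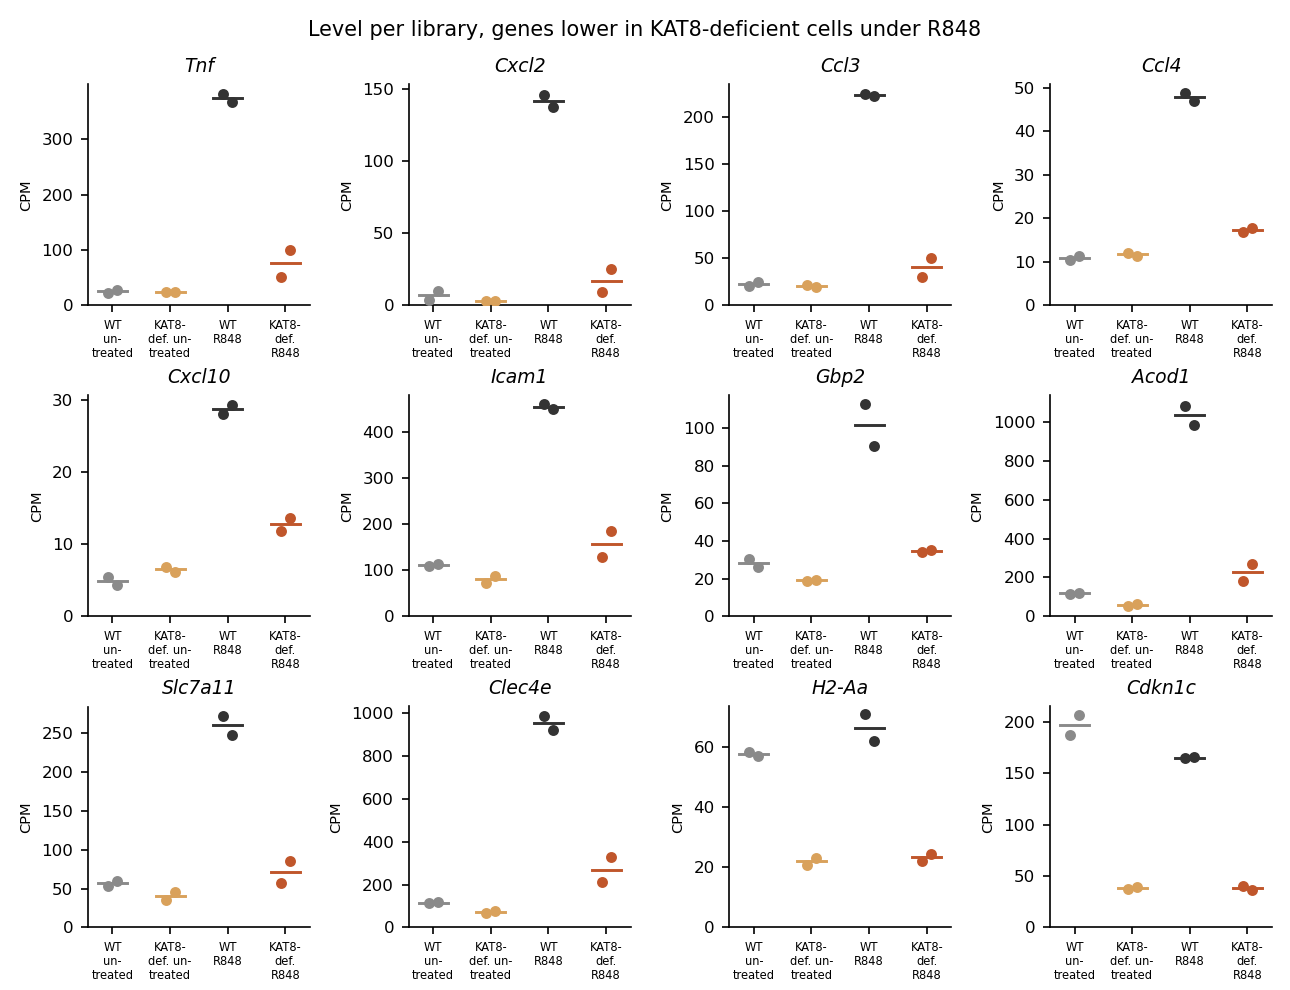
Level of 12 genes lower in KAT8-deficient cells under R848, in CPM (vertical axis, from 0), for each library (points) and as the group mean (short lines) in the 4 groups. For Tnf and Ccl3 the untreated groups overlap and the R848 groups lie apart. For Cxcl2 and Ccl4 the untreated groups do not overlap but lie closer in CPM than the R848 groups. For H2-Aa and Cdkn1c both genotypes differ with and without R848.

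The promoters of Cxcl2 and Cxcl3 are printed because both genes were among the largest falls and both hold, close to the start, the letters of an NF-kB type (kB) motif, searched on both strands as GGGA and TTCC with any 2 bases between.
The sequences are RefSeq's for GRCm38.p6, the 250 bases before the gene's start at chr5:90903649-90903898 and chr5:90785851-90786100, both on the plus strand, written 5′ to 3′ with the motif matches, which overlap on both strands, in capitals:
Cxcl2: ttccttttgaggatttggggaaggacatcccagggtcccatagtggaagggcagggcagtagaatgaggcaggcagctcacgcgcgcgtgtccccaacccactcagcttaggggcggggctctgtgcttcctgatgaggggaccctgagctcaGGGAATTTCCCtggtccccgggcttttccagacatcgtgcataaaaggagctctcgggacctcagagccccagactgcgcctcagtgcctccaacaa
Cxcl3: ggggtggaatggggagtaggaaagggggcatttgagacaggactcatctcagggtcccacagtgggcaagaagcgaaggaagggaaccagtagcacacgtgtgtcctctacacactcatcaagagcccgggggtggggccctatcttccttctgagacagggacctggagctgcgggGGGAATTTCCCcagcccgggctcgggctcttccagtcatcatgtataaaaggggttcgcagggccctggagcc

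RefSeq promoter entries matched 10555 of the 14040 genes tested. The kB letters were in this 250-base window for 1.48% of the genes tested (1.36% of all promoters in the table), for 3.24% of the genes that fell (19 of 587) and for 7.26% of those lower by at least 1 (9 of 124), against 1.97% of the genes that rose. For genes higher by at least 1 the share was 1.89% (3 of 159). A match describes the letters only and is not a measured binding site.

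NF-kB subunits, their inhibitors and their textbook targets were lower in most of the genes listed. Of 36 genes tested, 25 fell, 0 rose and 11 were not called, with a median of -0.59; in untreated cells edgeR called 0 of the 36, with 7 at an unadjusted p under 0.05, limma-voom 0 and DESeq2 1 (Icam1). Icam1, an adhesion molecule for leukocytes, was at 459.7 and 450.3 CPM in WT and 129 and 186 CPM in KAT8-deficient R848 cells (-1.53, SE 0.15, adjusted p = 0.000648). Nfkbia, the inhibitor I-kappa-B alpha that NF-kB itself induces, fell from 267 and 271 to 98.9 and 145 CPM (-1.14). Nfkbiz, a nuclear co-regulator of late inflammatory genes, fell from 89.2 and 92.2 to 35.2 and 48.4 CPM (-1.12). The anti-apoptotic Bcl2a1d (-0.98) and Bcl2a1b (-0.64) also fell, but they are near-identical copies whose reads the counting could have split. The subunit genes themselves fell less: Nfkb1 -0.87, Relb -0.59, Rel -0.49, Nfkb2 -0.48 and Rela -0.44. Both induced targets and feedback inhibitors (Tnfaip3, Tnip1, Socs3, Irak3) were thus lower in the same cells. Without WT R848 replicate 1 the count that fell was 14.

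Differences on the receptor side of the pathway were small, from -0.63 to 0.35. Of 24 genes for TLR7, its trafficking and the MyD88 pathway, 4 fell and 1 rose, with a median of -0.074. The falls were 16.7% of the list, against 5.47% of all genes tested, and the rise 4.17%, against 8.14%. Tlr7 itself was at 84.6 and 35.2 CPM in WT and 29.6 and 69 CPM in KAT8-deficient R848 libraries, and the groups overlapped; the difference of -0.28 (SE 0.51) was not called (adjusted p = 0.769), and the replicates of either R848 group differed by more than the group means did. The genes that fell were the kinases Ikbke (-0.47), Chuk (-0.27) and Tbk1 (-0.23) and the factor Irf7 (-0.63), and the gene that rose was the protease Ctsk (0.35), which is also an osteoclast marker. These calls were fragile: the count that fell was 0 without WT R848 replicate 2, 1 without WT R848 replicate 1 or KAT8-deficient R848 replicate 2, and 2 without KAT8-deficient R848 replicate 1 or either KAT8-deficient untreated library.

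Interferon-stimulated genes, which carry out antiviral defence, fell in 19 of 44 members, by smaller amounts. In this list 0 rose, with a median of -0.38, and 2 fell untreated. Cxcl10, an interferon-induced chemokine, was at 28 and 29.3 CPM in WT and 11.8 and 13.6 CPM in KAT8-deficient R848 cells (-1.17, SE 0.13, adjusted p = 0.000857). Isg15, a ubiquitin-like antiviral protein, was at 17.7 and 15.3 CPM against 9.33 and 7.5 CPM (-0.97, SE 0.15, adjusted p = 0.00358), and KAT8-deficient R848 cells stood at the untreated levels of 9.41 and 8.2 CPM in WT and 8.4 and 7.38 CPM in KAT8-deficient cells. The RNA sensor Ifih1 fell from 51.7 and 51.3 to 34.4 and 30.2 CPM, and Parp14 from 195 and 188 to 125 and 121 CPM. The Ifit genes, which bind foreign RNA, fell as well: Ifit2 -1.19, Ifit3 -1.08 and Ifit1 -1.03. The count depended on single libraries: 4 genes fell without WT R848 replicate 1, and 9 without WT R848 replicate 2 or KAT8-deficient R848 replicate 2. In the signalling list, 4 of 18 fell and 1 rose, with a median of -0.15 and 2 falls without WT R848 replicate 1. The factor Irf1 fell from 56.5 and 57.7 to 22.9 and 30.2 CPM (-1.1, adjusted p = 0.00141), and the kinase Jak2 from 139.8 and 133 to 73.8 and 91 CPM (-0.73).

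The guanylate-binding proteins, interferon-inducible GTPases that attack the vacuoles of microbes, accounted for all 5 of the 16 inducible GTPases that fell. Of the 16, 0 rose, and 2 of them fell untreated. Gbp2 was at 112 and 90.3 CPM in WT and 33.9 and 35.2 CPM in KAT8-deficient R848 cells (-1.55, SE 0.11, adjusted p = 0.000271). Gbp5 was at 25.6 and 22.7 CPM against 4.9 and 6.08 CPM (-2.13), and Gbp3 at 33.9 and 28.4 against 12.4 and 13.8 CPM (-1.25). Untreated raw counts of Gbp2 were 654 and 484 in WT against 360 and 362 in KAT8-deficient cells. For Gbp3 they were 295 and 238 against 157 and 168, and for Gbp5 76 and 58 against 28 and 48. Gbp6 (-1.28) overlaps another gene model on the same strand, so its value is uncertain. Of 11 AIM2-like DNA sensors, 6 fell and 0 rose (median -0.76), with 3 falls without WT R848 replicate 1 or without either KAT8-deficient R848 library. In untreated cells 2 of these 11 fell. Ifi205 fell from 22.6 and 16.6 to 6.5 and 6.46 CPM (-1.6), while Ifi211 (-1.0) and Ifi203 (-1.0) share sequence and overlap Mndal, so reads could have been split among them.

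The promoters of Cxcl10, Isg15 and Gbp2 are printed because they hold the letters of an interferon-type motif, searched on both strands as a pair of GAAA with any 2 bases between.
The windows are the 250 bases before the start, from RefSeq for GRCm38.p6: chr5:92348890-92349139 (minus strand), chr4:156200819-156201068 (minus strand) and chr3:142620413-142620662 (plus strand), each written 5′ to 3′ along its gene.
Capitals mark the interferon-type letters, and in Cxcl10 also the kB letters; in Isg15 the matches overlap in a row:
Cxcl10: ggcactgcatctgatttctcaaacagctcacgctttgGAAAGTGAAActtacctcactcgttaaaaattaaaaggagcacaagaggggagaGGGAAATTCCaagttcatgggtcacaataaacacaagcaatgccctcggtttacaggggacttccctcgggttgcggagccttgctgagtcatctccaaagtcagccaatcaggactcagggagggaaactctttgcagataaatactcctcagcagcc
Isg15: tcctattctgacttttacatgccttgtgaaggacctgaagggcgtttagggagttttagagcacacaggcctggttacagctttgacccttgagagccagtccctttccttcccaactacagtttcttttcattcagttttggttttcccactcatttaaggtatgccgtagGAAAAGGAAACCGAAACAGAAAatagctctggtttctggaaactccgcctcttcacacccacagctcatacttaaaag
Gbp2: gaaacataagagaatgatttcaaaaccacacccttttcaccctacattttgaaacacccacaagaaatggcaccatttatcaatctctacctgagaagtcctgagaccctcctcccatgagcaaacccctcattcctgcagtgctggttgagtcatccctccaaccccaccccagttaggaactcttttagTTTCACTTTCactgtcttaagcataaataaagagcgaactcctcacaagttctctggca

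The interferon-type letters were in the window for 3.39% of the genes tested, 6.98% of the genes that fell (41 of 587), 12.9% of those lower by at least 1 (16 of 124) and 3.01% of the genes that rose. For genes higher by at least 1 the share was 5.03% (8 of 159), also above that of the genes tested. The AP-1 letters TGANTCA were in 5.72% of the genes tested, 8.86% of the genes that fell, 12.1% of those lower by at least 1 (15 of 124) and 6.84% of those that rose. Of those higher by at least 1, 7.55% (12 of 159) held them. In the genes tested, those that fell and those that rose, the CRE letters TGACGTCA were in 2.97%, 2.04% and 1.97%, and the CCAAT box in 40.3%, 38% and 43.7%.

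Pattern recognition receptors, with which macrophages detect microbes, were lower in 17 of 28 genes, and 0 rose (median -0.40; 1 fell untreated). The lectin receptor Clec4e (Mincle) was at 984 and 919 CPM in WT and 210.2 and 326 CPM in KAT8-deficient R848 cells (-1.83, SE 0.17, adjusted p = 0.000583), against 114 and 117 and 65.7 and 75.4 CPM untreated. Tlr2, the lipopeptide receptor, fell from 423 and 407 to 127 and 181 CPM (-1.43, adjusted p = 0.000659). The inflammasome sensor Nlrp3 fell from 70.9 and 69.7 to 12 and 17.7 CPM (-2.24, SE 0.22, adjusted p = 0.000642). The formyl peptide receptors Fpr2 (-2.1) and Fpr1 (-1.51) also fell. In all of these both KAT8-deficient libraries were below both WT libraries, and replicate 2 was above replicate 1. Without WT R848 replicate 1 the count that fell was 9.

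Antigen presentation genes of MHC class I and class II differed in both states. Of 13 genes of the MHC class II pathway, 8 fell and 1 rose (median -0.53), and untreated 7 fell and 1 rose (median -0.63). H2-Aa, a class II alpha chain, was at 71 and 62 CPM in WT and 22.1 and 24.5 CPM in KAT8-deficient R848 cells (-1.51, SE 0.10, adjusted p = 0.000145), and untreated at 58.4 and 57.1 and 20.8 and 23.2 CPM (-1.39). Cd74, the invariant chain, was at 229 and 211 against 87.2 and 95.7 CPM under R848 and 193 and 235 against 84 and 80.6 CPM untreated. Ciita, the class II transactivator, fell from 4.0 and 3.52 to 1.32 and 1.13 CPM (-1.61), and the lysosomal reductase Ifi30 rose (0.39). Class II genes that fell numbered 4 without WT R848 replicate 1 and 5 without WT R848 replicate 2 or KAT8-deficient R848 replicate 1. Of 24 class I and peptide-loading genes, 17 fell and 2 rose (median -0.48), against 10 and 1 untreated. B2m, the common light chain, fell from 2602 and 2292 to 1741 and 1755 CPM (-0.49), and H2-K1 (-0.65) and the transporter Tap2 (-0.60) fell with it. H2-M2 fell from 65 and 59.3 to 11.9 and 18.8 CPM (-2.02); H2-Q6, H2-Q7 and H2-Q4 also fell (-1.74, -1.48 and -0.95) but are near-identical copies and uncertain as single genes. The 2 that rose were the chaperones Calr (0.26) and Pdia3 (0.28); this count was 1 without either WT R848 library and 0 without KAT8-deficient R848 replicate 1. Among 13 ligands that instruct T cells, 5 fell and 2 rose under R848, while untreated 0 fell and 1 rose (median 0.036). Cd40 fell from 17.4 and 16.4 to 4.76 and 7.26 CPM (-1.49), Icosl from 8.0 and 7.56 to 1.88 and 2.5 CPM (-1.82), and Cd274, which encodes PD-L1, from 287 and 291 to 157 and 195 CPM (-0.72). Those that rose, Vsir (0.40) and Nectin2 (0.35), were 0 in number without WT R848 replicate 1 and 1 when any other R848 library was left out.

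**Figure D3:**
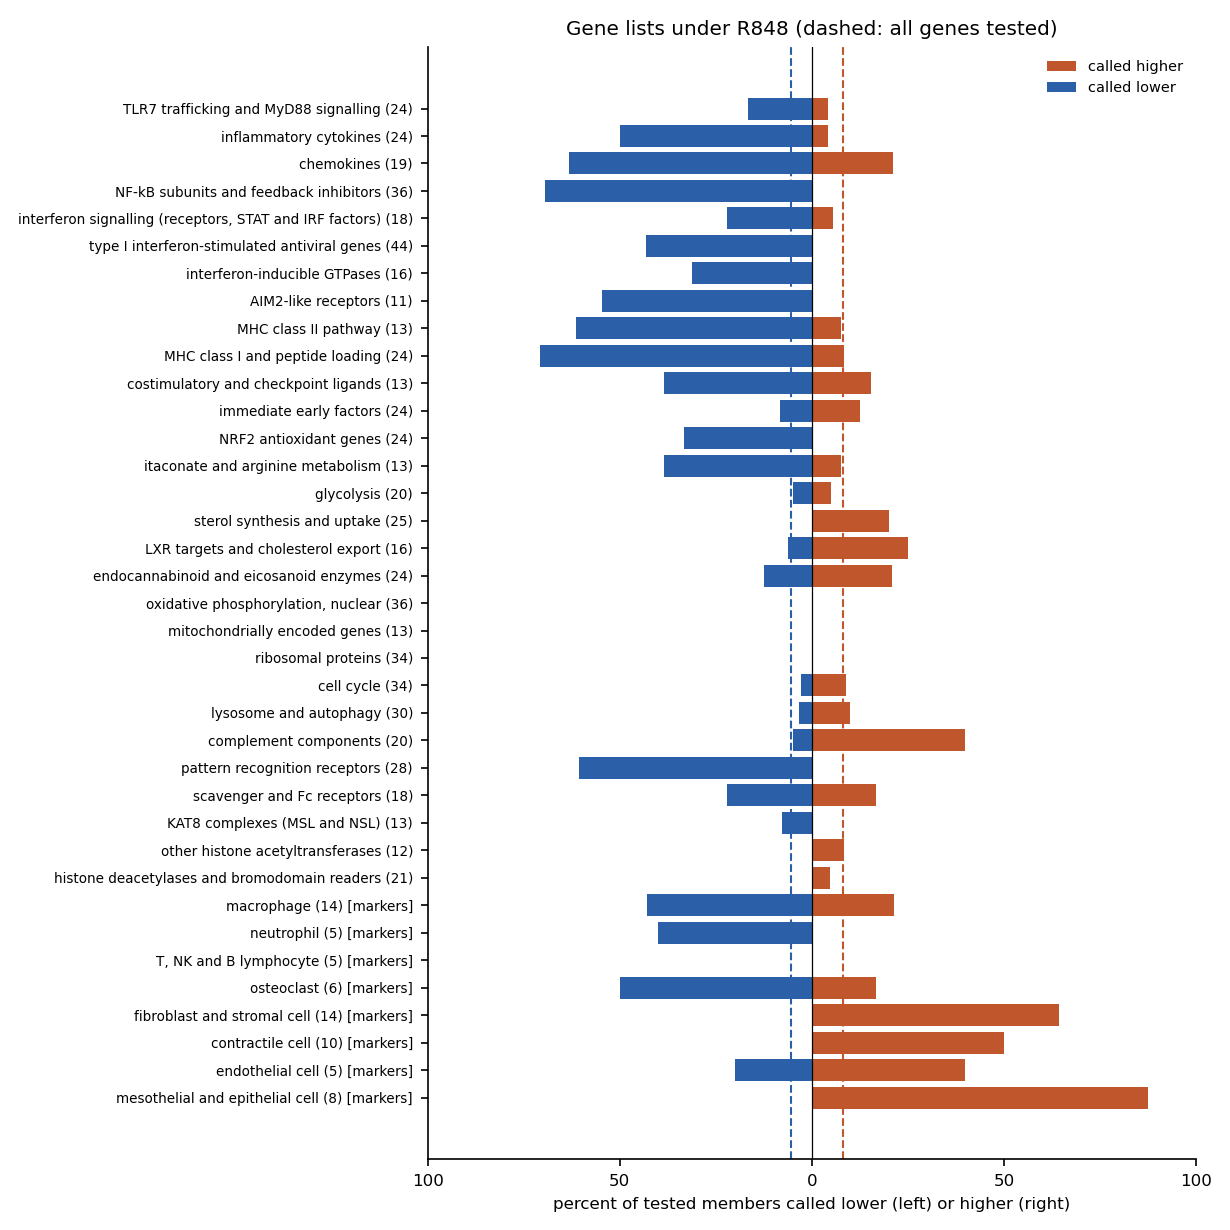
Percent of the tested members of each gene list called lower (left, blue) or higher (right, orange) in KAT8-deficient cells under R848, with the number of members tested in brackets; the dashed lines mark 5.47% lower and 8.14% higher over all genes tested. The inflammatory, NF-kB, interferon, sensor and antigen-presentation lists reach left, the stromal and mesothelial marker lists reach right, and the respiratory chain and ribosomal lists are empty.

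Other large falls were of genes outside these groups. Rasgrp1, an exchange factor that activates Ras, was at 13.7 and 12.6 CPM in WT and 1.74 and 1.98 CPM in KAT8-deficient R848 cells (-2.81, SE 0.18, adjusted p = 0.000145). The pantetheinase Vnn3 was at 6.35 and 4.19 against 0.518 and 1.27 CPM (-2.55). Chpf2, a chondroitin polymerase, was at 155 and 153 against 21.3 and 24.6 CPM (-2.74, adjusted p = 0.0013); its untreated libraries ranged widely within each genotype (118 and 62.5 CPM in WT, 70.3 and 128 CPM in KAT8-deficient cells), and it overlaps Smarcd3 on the other strand. Pheta1, an endosomal trafficking protein, was at 9.12 and 9.39 against 1.98 and 2.26 CPM under R848, and untreated at 1.54 and 2.55 against 10.02 and 9.41 CPM, the opposite order.

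Several metabolic genes that inflamed macrophages switch on fell: of 13 itaconate and arginine genes 5 fell, 1 rose and 7 were not called, with a median of -0.044. In untreated cells 3 of the 13 fell and 1 rose (median -0.045). Acod1, which makes the immunometabolite itaconate, was at 1083 and 985 CPM in WT and 181 and 271 CPM in KAT8-deficient R848 cells (-2.19, SE 0.17, adjusted p = 0.00033), and untreated at 118 and 121 and 52.3 and 63.6 CPM (-1.04). The arginine transporter Slc7a2 fell from 229 and 218 to 42.6 and 44.9 CPM (-2.35, SE 0.20, adjusted p = 0.000482). Nos2, the inducible nitric oxide synthase, fell from 2.93 and 2.25 to 0.236 and 0.283 CPM (-3.29), and Ass1, which recycles citrulline to arginine, from 32.5 and 31.8 to 14.3 and 16.8 CPM (-1.05). Arg1, the arginase that competes for the same substrate, went the other way, from 6.99 and 5.41 to 22.9 and 17 CPM (1.69, SE 0.17, adjusted p = 0.000684), and it was also higher untreated (10.7 and 9.56 against 31.3 and 30.3 CPM, 1.6). The fifth gene of this list to fall was Arg2. Untreated raw counts of Slc7a2 were 1980 and 1037 in WT against 759 and 590 in KAT8-deficient libraries. For Ass1 they were 474 and 475 against 259 and 277. Among 24 antioxidant genes of the NRF2 type, 8 fell and 0 rose (median -0.22), with 5 falls without WT R848 replicate 1. The cystine transporter Slc7a11 fell from 272 and 248 to 57.6 and 86 CPM (-1.86, SE 0.18, adjusted p = 0.00061), and the heme oxygenase Hmox1 from 665 and 660.4 to 476 and 519 CPM (-0.41). Gclm (-1.0) also fell, but a pseudogene model overlaps it on the same strand. The prostaglandin enzymes split: Ptgs2 (-0.78) and Ptges (-1.56), which inflammation induces, fell, while the constitutive Ptgs1 (0.59), Hpgds (0.47) and Ptgis (0.31) rose. Glycolysis genes were mostly not called: 1 rose and 1 fell of 20, 5% each, against 8.14% and 5.47% of all genes tested.

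Housekeeping lists showed no call under R848: 0 of 36 nuclear genes of oxidative phosphorylation, 0 of 13 mitochondrially encoded genes and 0 of 34 ribosomal protein genes passed edgeR's test, with 1, 0 and 0 at an unadjusted p under 0.05. DESeq2 and limma-voom also called 0 in each of these lists. The median differences of these lists were -0.062, 0.033 and -0.024. Of 34 cell-cycle genes 1 fell (2.94%) and 3 rose (8.82%), near the 5.47% and 8.14% of all genes tested. The gene that fell was Cdkn1c, the cyclin-dependent kinase inhibitor p57, with 165 and 166 CPM in WT and 40.3 and 36.1 CPM in KAT8-deficient R848 cells (-2.11, SE 0.08, adjusted p = 1.02e-05). Untreated, Cdkn1c stood at 188 and 207 against 37.6 and 39.3 CPM, so the 4 KAT8-deficient libraries were alike and far below the 4 WT libraries. The rises were of Cdkn2c (0.75), Pcna (0.23) and Kif11 (0.41), of which 1 was left without either WT R848 library, KAT8-deficient R848 replicate 1 or either KAT8-deficient untreated library. Among the other histone acetyltransferases 1 of 12 rose (Kat6b, 0.48), or 8.33%. Among deacetylases and bromodomain readers it was 1 of 21 (Hdac5, 0.58), or 4.76%, against 8.14% of all genes tested. Both calls were lost without WT R848 replicate 1 (differences of 0.46 and 0.52) and without KAT8-deficient R848 replicate 1 (0.38 and 0.51). The call of Kat6b was also lost without WT R848 replicate 2 (0.50).

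Among the genes that rose, Gdpd3 (chr7:126766334-126775649), a lysophospholipase D, had the largest difference by the rule used for naming genes. The gene model Gm49388, outside that rule and named after its value was seen, had a larger one (8.61, SE 1.79, adjusted p = 0.0143), at 0 and 0.255 CPM in WT R848 and 44.9 and 61.9 CPM in KAT8-deficient R848 libraries; it overlaps Setd1a and Hsd3b7 on the same strand and was at 21.9 and 0 CPM in the WT untreated libraries, so its counts are uncertain. Gdpd3 was at 2.72 and 1.89 CPM in WT R848 and 40.6 and 47.6 CPM in KAT8-deficient R848 libraries (4.26, SE 0.17, adjusted p = 1.02e-05), and at 2.52 and 2.72 and 49.1 and 43.4 CPM untreated. Its level thus followed the genotype and was alike with and without R848. Gdpd3 lies within 2 megabases of Kat8, where 12 of 101 genes tested were called (8 higher, 4 lower; 11.9%, against 13.6% overall). Lyz1 and Lyz2, neighbouring and near-identical lysozyme genes, moved in opposite directions in both states. Lyz1 was at 21 and 17.3 CPM in WT and 75.5 and 75 CPM in KAT8-deficient R848 cells (1.97), and Lyz2, the main macrophage lysozyme, at 12139 and 11028 and 5202 and 5335 CPM (-1.14). Untreated the differences were 1.99 and -1.04; reads could have been split between these copies, so each value is uncertain. The endosomal adaptor Wdfy1 likewise followed the genotype, from 25.7 and 28.9 to 92.9 and 89 CPM under R848 and 28.4 and 22.8 to 93.1 and 95.5 CPM untreated, although it overlaps Mrpl44 on the other strand.

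Other rises came with a low level in WT cells under R848. The flavin monooxygenase Fmo2 was at 2.83 and 3.01 CPM in WT and 18.9 and 13 CPM in KAT8-deficient R848 cells (2.45, SE 0.30, adjusted p = 0.00127), and untreated at 6.76 and 3.75 and 16.1 and 12.5 CPM. Megf6 was at 3.31 and 3.27 against 17.7 and 11.7 CPM (2.15), and the Wnt pathway formin Daam2 at 4.96 and 5.87 against 23.1 and 18.2 CPM (1.93, adjusted p = 0.000279). Angptl7, an angiopoietin-like protein that overlaps Mtor on the other strand, was at 5.39 and 5.62 against 28.1 and 15.4 CPM under R848. Untreated, its genotypes overlapped, at 28.8 and 22.5 against 34.4 and 28.1 CPM. In these genes WT R848 libraries were the lowest of the 4 groups. The other large rises (Fam84a, BC021767, Plekha6, Pcp4l1, Cldn15, Cybrd1 and Ptn) lay between 1.75 and 2.03. Pcdhgb5 (2.55) was at 10.8 and 2.41 CPM in the KAT8-deficient R848 libraries, so that replicate 1 alone was high, and its exons are shared within the protocadherin cluster; its call was lost in 7 of the 8 fits that left out a library. Of the 30 largest rises and falls, 27 stayed called under all 16 alternatives, the exceptions being Pcdhgb5, Il12b and Il1b.

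**Figure D4:**
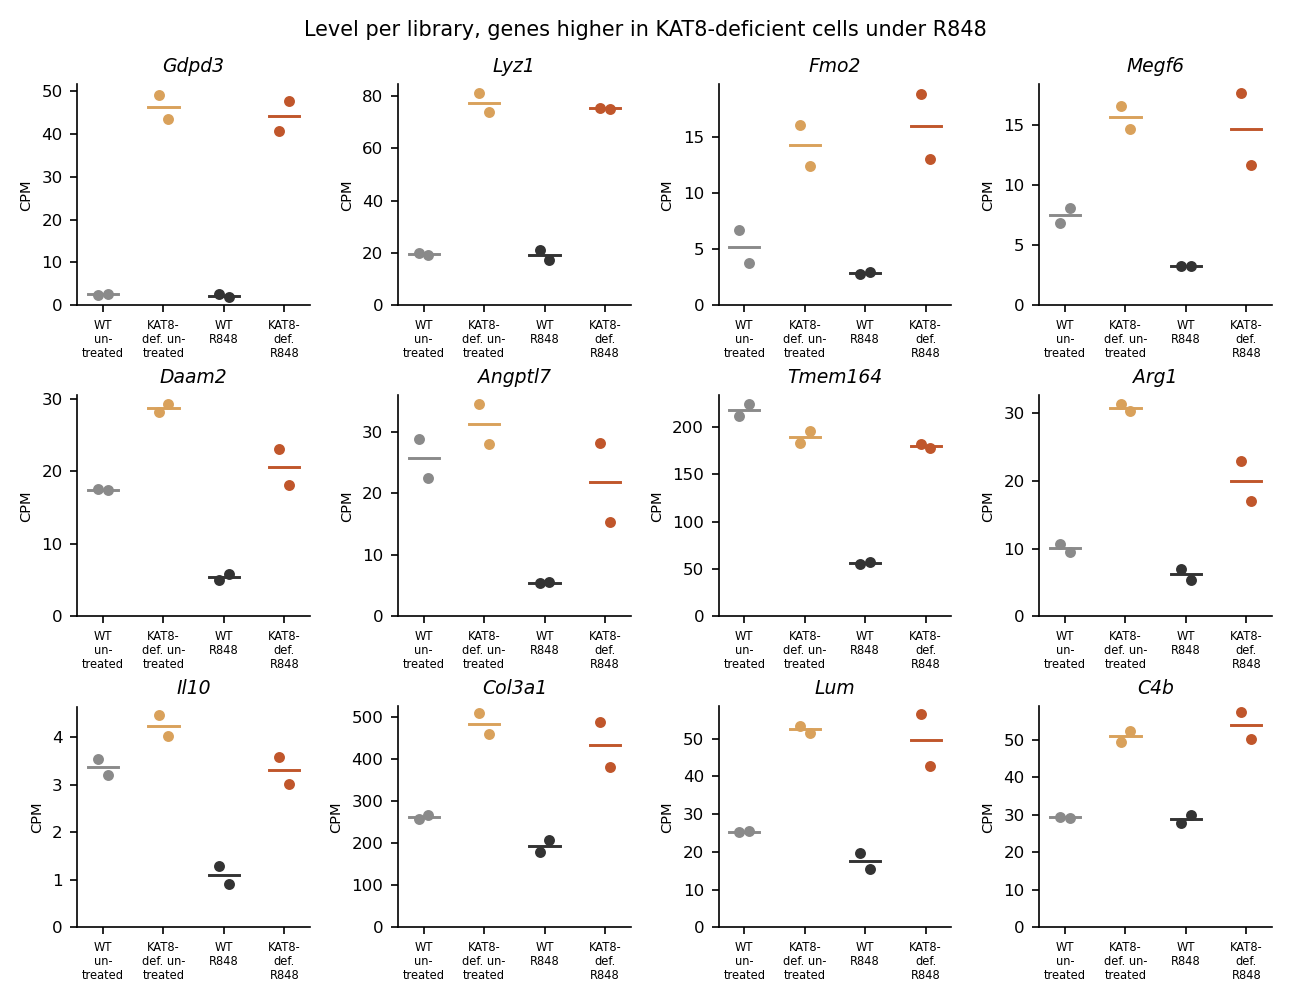
Level of 12 genes higher in KAT8-deficient cells under R848, in CPM (vertical axis, from 0), for each library (points) and as the group mean (short lines) in the 4 groups. Gdpd3, Lyz1, Col3a1 and C4b are high in both KAT8-deficient groups, while Tmem164 and Il10 are low only in the WT R848 libraries.

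Complement genes, which in part also come from stromal cells, rose in 8 of 20 and fell in 1 (median 0.39; untreated 6 rose and 1 fell). C4b was at 27.8 and 29.9 CPM in WT and 57.4 and 50.2 CPM in KAT8-deficient R848 cells (0.90, SE 0.09, adjusted p = 0.000589). The anaphylatoxin receptor C3ar1 rose from 333 and 316 to 549 and 507 CPM (0.70), and the complement regulator Cd55 from 45.2 and 45.2 to 75.9 and 75.2 CPM (0.74). Cfb, the alternative-pathway protease that inflammation induces, was the gene that fell, from 113 and 124 to 20.03 and 45.5 CPM (-1.85). The count that rose was 5 without either WT R848 library or KAT8-deficient R848 replicate 1. Sterol synthesis genes rose in 5 of 25 and fell in 0 (median 0.18), and untreated 3 rose; Cyp51, the lanosterol demethylase, rose from 163 and 155 to 209.97 and 186 CPM (0.32). The count that rose was 1 with the 4 R848 libraries alone, without either KAT8-deficient untreated library, without WT R848 replicate 1 or without KAT8-deficient R848 replicate 1, and 2 without WT R848 replicate 2; the call of Cyp51 was lost in each of these fits (adjusted p up to 0.179). Of 16 LXR targets and cholesterol export genes 4 rose and 1 fell, the exporter Abcg1 from 61.1 and 61.5 to 99 and 86.1 CPM (0.59); 1 rose without WT R848 replicate 1 and 2 without WT R848 replicate 2 or KAT8-deficient R848 replicate 1. Among immediate early factors, Egr1 (0.78), Klf4 (0.57) and Fos (0.69) rose, and Junb (-0.54) and Maff (-0.77) fell, of 24 tested. The rises were 12.5% and the falls 8.33% of the list, against 8.14% and 5.47% of all genes tested. The falls were lost without either WT R848 library or KAT8-deficient R848 replicate 1.

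Markers of stromal cells were higher in KAT8-deficient cultures with and without R848. Of 14 fibroblast and stromal markers 9 rose and 0 fell, in R848 and untreated cells alike (medians 0.42 and 0.44), and their summed level was 3061 and 3337 CPM in WT R848 against 4626 and 4522 CPM in KAT8-deficient R848 libraries (untreated 3622 and 4161 against 5224 and 5019 CPM). Col3a1, a fibrillar collagen, was at 179 and 207 CPM in WT and 487 and 380.1 CPM in KAT8-deficient R848 cells (1.17, adjusted p = 0.000684), and the proteoglycan genes Lum and Dcn rose by 1.5 and 0.84. Of 8 mesothelial and epithelial markers 7 rose (median 0.83; 3 untreated), with summed levels of 344.3 and 358.6 against 651.8 and 550.9 CPM; Msln rose from 4.32 and 4.49 to 15.2 and 9.86 CPM, and Upk3b from 148 and 146 to 274 and 227 CPM. Of 10 contractile markers 5 rose, with sums of 891.1 and 911.6 against 1089 and 1118 CPM. In these bulk samples more or fewer cells of a type and more or less RNA per cell cannot be told apart, and the part these cells had in the rises and falls above was not tested. Without WT R848 replicate 1 the fibroblast count was 5 and the mesothelial count 4; the contractile count was 2 without either WT R848 library or KAT8-deficient R848 replicate 1, and 3 without KAT8-deficient R848 replicate 2. Macrophage markers split, with 3 of 14 higher and 6 lower: the rises included Fcgr1 (1.09) and Cebpa (0.43), and Lyz2, Adgre1 (-0.41), Csf1r (-0.39), Cd14 (-0.65), Cebpb (-0.41) and Spi1 (-0.24) fell. Falls numbered 3 without WT R848 replicate 1, and rises 5 without KAT8-deficient R848 replicate 2.

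Without R848 fewer genes differed: 600 were called (4.27%), 409 higher (2.91%) and 191 lower (1.36%). This count was 66 without KAT8-deficient untreated replicate 1, 172 without its replicate 2, 165 and 228 without WT untreated replicates 1 and 2, and 341 and 391 without WT R848 replicates 1 and 2; the shares below were computed with all libraries. The untreated and R848 genotype comparisons share no library, though they share the estimate of the spread. Of the genes higher under R848, 27.6% were also called higher untreated, and of the lower genes 14.3% were also called lower untreated. Counted from the untreated side, 77% of the higher and 57.6% of the lower genes were also called in that direction under R848. The genes that rose under R848 had a median difference of 0.59 there and 0.33 untreated, while those that fell had -0.57 and -0.17; this choice of genes by their R848 value makes the first of each pair the larger.

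**Figure D5:**
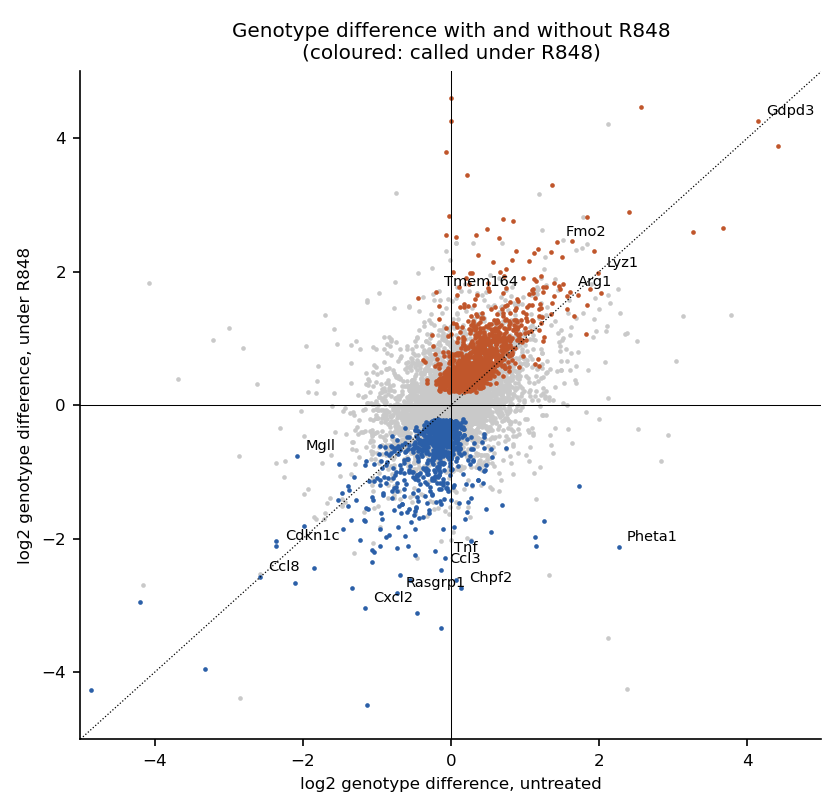
The log2 genotype difference under R848 (vertical axis) is plotted against that in untreated cells (horizontal axis), 1 point per gene tested, coloured where called under R848, with the line of equal differences dotted and 16 genes beyond the plotted range of 5 left out. Gdpd3, Lyz1, Arg1 and Cdkn1c lie near the line, whereas Tnf, Ccl3 and Tmem164 differ under R848 with untreated values between -0.21 and -0.07.

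The test of whether the genotype difference changed with R848, the interaction term, called 32 genes (0.228% of those tested; 1600 had an unadjusted p under 0.05), 24 with a lower and 8 with a higher difference under R848. Of these, 31 were called under R848 and 26 of them were not called untreated. The chemokines Ccl2, Ccl3, Ccl4, Ccl7, Ccl9 and Cxcl10 were 6 of the 24. The interaction was -1.57 for Ccl4 (SE 0.13, adjusted p = 0.00342), -2.33 for Ccl3 (SE 0.29, adjusted p = 0.0278) and -1.6 for Cxcl10 (adjusted p = 0.0252). For Tnf it was -2.22 with an adjusted p of 0.0575, which missed the threshold, as did that of Cxcl2 (-1.88, adjusted p = 0.362), whose libraries varied more. Hcar2, the receptor for niacin and ketone bodies, was at 20.5 and 20.3 CPM in WT R848 and 4.1 and 5.8 CPM in KAT8-deficient R848 cells, with 1.35 and 1.47 and 1.36 and 2.03 CPM untreated (interaction -2.31, adjusted p = 0.0428). The positive interaction with the smallest adjusted p was that of Tmem164, an acyltransferase of ether phospholipids. It stood at 211 and 224 CPM in WT and 183 and 195 CPM in KAT8-deficient untreated cells, at 54.7 and 56.9 CPM in WT R848 and at 182 and 178 CPM in KAT8-deficient R848 cells (interaction 1.89, SE 0.09, adjusted p = 0.000163). The WT R848 libraries alone were low. Fbxo32 (1.3), a ubiquitin ligase subunit, Xylt1 (0.77), Daglb (0.70) and Dhrs3 (0.63) also had positive interactions and were lowest in the WT R848 libraries. Their KAT8-deficient R848 libraries also lay below the KAT8-deficient untreated ones, as in Daglb with 305 and 294 CPM untreated and 217 and 202 CPM with R848. Mgll, the lipase that breaks down the endocannabinoid that Daglb makes, was lower in both states but less so under R848: 89.6 and 96.5 against 22.3 and 21.9 CPM untreated and 93 and 101 against 57.2 and 56.7 CPM with R848 (interaction 1.31, adjusted p = 0.00291). The kinase Src was called in opposite directions, 0.74 untreated and -0.64 under R848, as were Cebpd (0.45 and -0.64), Vcam1 (0.44 and -0.47), Pheta1 (2.26 and -2.12) and Pcdhga12 (1.73 and -1.21). For Pcdhga12 edgeR did not call the interaction (adjusted p = 0.0583). It was low, at 2.99 and 2.81 CPM in WT R848 and 0.801 and 1.7 CPM in KAT8-deficient R848 libraries. Like Pcdhgb5 it lies in the protocadherin cluster with shared exons, so its counts are uncertain. Of the 32 genes, 6 (Ccl4, Fbxo32, Mgll, Pheta1, Src and Tmem164) stayed called whichever library was left out, and each of the others was lost in at least 1 such fit, with the highest adjusted p between 0.0795 (Gm20716) and 0.161 (Hcar2 and Ifi205). Under all 7 other alternatives 19 of the 32 stayed called; limma-voom did not call Hcar2, Cd40, Ifi205, Vcam1 or Gm20716, and Ccl3 missed the threshold when the spread was estimated robustly (adjusted p = 0.0866). The count of interaction calls changed with the libraries, from 6 without KAT8-deficient untreated replicate 1 to 208 without KAT8-deficient R848 replicate 2; it was 11 without KAT8-deficient untreated replicate 2 or either WT R848 library and 19 without WT untreated replicate 2.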

How the data were processed

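The deposited file held raw counts per gene, 1 column per library, for 34745 genes, per the file headers; 34344 had a symbol and position in the GENCODE M21 annotation (mm10), and genes without one held 0.102% of the counts. Per the submitters' processing notes, the authors used HISAT2, StringTie 1.3.0 and edgeR on mm10, with no roles given; how reads were counted, and on which strand, was not stated in the sources used here, so overlapping antisense genes could share reads. Library totals were 18550977 to 21384532 counts.

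Genes were filtered with filterByExpr by group (minimum count 10), leaving 14040 with 99.95% of the counts, and fitted over all 8 libraries with edgeR 4.0.16 (R 4.3.3): trimmed-mean (TMM) scaling with factors of 0.985 to 1.012, 1 mean per group, 4 residual degrees of freedom, quasi-likelihood F test, two-sided, Benjamini-Hochberg threshold 0.05. The common biological coefficient of variation was 0.096. SE is the log2 difference over the square root of F. Replicates were distinct libraries (chi-square per degree of freedom of 7.41 to 11.96 between them). In simulated data with 13850 genes, 82% of 100 genes changed by log2 1 and 97% of 100 changed by log2 2 were recovered in the R848 comparison, with 11 false calls, and 0 calls when nothing was changed.

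The gene lists and members were chosen with earlier results of these data known. Genes named by rule were, among those called under R848, the 15 largest rises and 15 largest falls whose higher group reached 5 CPM, whose R848 libraries did not overlap and whose names were not those of predicted genes, clones or pseudogenes; up to 4 called members per list with the smallest adjusted p; the 8 largest interactions each way with at least 5 CPM; and always Tnf, Cxcl10, Isg15, Kat8, Tlr7, Il10, Il6, Ifnb1 and Il12b. Some genes that this rule names are not reported here. Other list members and interaction genes were named after their values were seen. Alternatives were DESeq2 1.42.0 size factors, its Wald test, limma-voom (limma 3.58.1), robust estimation of the spread, no filter, at least 5 CPM in at least 2 libraries, a replicate block, the 4 R848 libraries alone, and leaving out each library.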

Additional observations from a re-analysis of the deposited data

Results flagged for a closer look

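For 18 of the genes named, the genotype difference under R848 departed from that in untreated cells by edgeR's interaction test; the values are log2, the R848 difference minus the untreated one, with no explanation weighed. Lower under R848 were Pheta1 (-4.38), Ccl3 (-2.33), Hcar2 (-2.31), Cd40 (-2.18), Ifi205 (-1.82), Cxcl10 (-1.6), Ccl4 (-1.57), Nfkbiz (-1.48), Inhba (-1.2), Marcksl1 (-1.02) and Ccl9 (-0.77). Higher under R848 were Tmem164 (1.89), Mgll (1.31), Fbxo32 (1.3), Xylt1 (0.77), Daglb (0.7) and Dhrs3 (0.63). The gene model Gm20716 had the value 11.47, which depends on the fit's handling of 0 counts: it was at 22.3 and 11.5 CPM in WT untreated and 0 in both KAT8-deficient untreated libraries, and at 11.3 and 15 CPM in WT and 12 and 15.6 CPM in KAT8-deficient R848 libraries. Gm20716 overlaps Adnp and Dpm1 on the same strand, so its counts are uncertain. Groups of 2 libraries are too small for a test of outlying samples.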

How the results depend on the processing

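With 2 libraries a group, the number of calls changed when single libraries were left out, and no result reversed under any alternative run. Leaving out 1 library at a time gave 784 to 1894 calls under R848 (463 to 1155 higher, 321 to 739 lower), 66 to 606 untreated, 6 to 208 for the interaction, and -0.82 to -0.65 for Kat8, which was not called without WT R848 replicate 1 (adjusted p = 0.0526). Each such fit assumes that the lone library varies like the other groups. The other alternatives gave 1505 (DESeq2 Wald test) to 2079 calls (robust estimation) under R848 and 531 to 871 untreated. The interaction count was 245 without a filter on low counts, 227 by the DESeq2 Wald test and 148 with robust estimation, all well above 32. The cause was not tested. The tally of named genes that follows leaves out Kat8, whose stability is given above. Of the 146 named genes called under R848, 110 stayed called under all 16 alternatives, 36 were lost when at least 1 library was left out, and 17 under another alternative. Over all genes tested, samples with the same replicate number did not deviate together (correlations of -0.06 to 0.048 between groups). Such a correlation cannot exclude a pairing that touches only some genes, and the labels do not say what the numbers mean. With a replicate block 1871 genes were called under R848 (1105 higher, 766 lower), 531 untreated and 25 for the interaction, and Kat8 was at -0.74.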

Other observations

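Of 18 scavenger and Fc receptor genes 3 rose and 4 fell under R848. The high-affinity receptor Fcgr1 rose from 13.4 and 12.6 to 31.2 and 24.1 CPM and the inhibitory receptor Fcgr2b fell from 293 and 269 to 207 and 212 CPM, while the oxidised-LDL receptor Olr1 fell from 66.2 and 62.2 to 20.7 and 31.8 CPM (-1.29). The falls numbered 2 without WT R848 replicate 1. Of 24 endocannabinoid and eicosanoid enzymes 5 rose and 3 fell, Daglb from 121 and 127 to 217 and 202 CPM (0.76). Of 30 lysosome and autophagy genes 3 rose (10%) and 1 fell (3.33%), near the 8.14% and 5.47% of all genes tested. The gene that fell was the autophagy receptor Sqstm1, from 1161 and 1271 to 743 and 839.8 CPM (-0.62). Fewer of the list rose when any 1 of the R848 libraries was left out.

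Among markers of further cell types, 3 of 6 osteoclast markers fell and 1 rose; the fusion receptor Dcstamp was at 5.92 and 6.23 CPM in WT and 2.4 and 2.12 CPM in KAT8-deficient R848 cells (-1.42), and also differed untreated (-1.53). The osteoclast falls numbered 1 without either WT R848 library. Of 5 neutrophil markers 2 fell, Lcn2 from 8.64 and 7.35 to 2.64 and 3.25 CPM and Camp from 0.747 and 0.766 to 0.141 and 0.0943 CPM; the count was 1 when any of the 4 R848 libraries was left out. Of 5 endothelial markers 2 rose (Kdr and Vwf) and 1 fell (Eng), of 3 adipocyte markers 2 rose (Fabp4 and Pparg), and of 2 megakaryocyte markers 1 rose (Itga2b) and 1 fell (Pf4); each of these calls was lost in at least 1 fit that left out a library. Of 4 dendritic cell, 5 lymphocyte and 1 mast cell markers tested, edgeR, DESeq2 and limma-voom each called 0 (0, 1 and 1 at an unadjusted p under 0.05 in edgeR). Over the autosomes and the X chromosome the share of tested genes called ran from 10.2% (chromosome 13) to 16.8% (chromosome 6), and was 13.1% on chromosome 7, which carries Kat8.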
